A study of Mus musculus with 12 samples.

Results

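The genes described here are 10 cytokine and ligand genes of lymphocytes: Ltb, Lta, Tnf, Cd40lg, Fasl and Cd70 of the TNF family, and the soluble cytokine genes Il16, Il2, Il4 and Ifng. They were taken by gene name from a table of 41128 genes, in which each name occurred once. Of the 10, 6 had 3 or more libraries with an adjusted TPM of 1 or above and entered the tests (Ltb, Il16, Cd40lg, Tnf, Fasl and Lta), and 4 did not (Il2, Ifng, Cd70 and Il4). TPM is a length-corrected share of transcripts. How the authors adjusted it is not given in the sources used here, so levels are set side by side between genes on the assumption that the adjustment kept the correction for length.

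RNA was sequenced from spleen lymphocytes of C57BL/6J mice aged 6 to 8 weeks, in 12 libraries that form 4 groups of 3. The groups were CD43- resting B cells from females, CD43- resting B cells from males, naive CD4+ CD62L+ T cells from females and naive CD4+ CD62L+ T cells from males. The T cells had been depleted of other lineages with magnetic beads and then sorted as CD25- CD44 low CD62L high cells, and each replicate came from a pool of mice. All groups share the strain, the tissue and the age. Within each sex, labels number the libraries 1 to 3 (B cells) or 4 to 6 (T cells), and libraries are named here by sex, cell type and that number. The T cell libraries numbered 6 of both sexes stood apart from the other T cell libraries, with more Ikzf2, Il2ra and Il2rb, so the comparison of B and T cells is also given without them.

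TNF family ligands are trimeric membrane proteins that act on neighbouring cells through receptors of the TNF receptor family, and some are also cut from the surface. Lymphotoxin α, the product of Lta, forms either a soluble homotrimer that binds the TNF receptors or a membrane complex with lymphotoxin β, the product of Ltb, which binds the lymphotoxin β receptor on stromal cells and is needed for the architecture of the spleen and lymph nodes. CD40 ligand on helper T cells activates B cells through CD40, Fas ligand triggers death through Fas, and CD70 acts through CD27. Interleukin 2, interleukin 4 and interferon γ are made by helper T cells after stimulation, while interleukin 16, which binds CD4, is stored as a precursor in resting lymphocytes.

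Ltb and Il16 were the most abundant members in both cell types. By the median of the 6 libraries, the order in T cells was Ltb (302.8 adjusted TPM), Il16 (177.0), Cd40lg (20.5), Tnf (11.8), Fasl (6.98) and Lta (4.65), followed by Il2, Ifng, Cd70 and Il4, all under 0.1. Among these, only the neighbours Il2 and Ifng overlapped in their library values, although the deposited bounds also overlapped between Tnf and Fasl, between Fasl and Lta, between Ifng and Cd70, and between Cd70 and Il4. In B cells the order was Ltb (295.1), Il16 (155.8), Tnf (8.84) and Lta (8.22), followed by Ifng (0.158), Cd40lg (0.0611), Fasl (0.0497), Il2, Cd70 and Il4. There, Tnf overlapped Lta, Ifng overlapped Cd40lg, and Cd40lg overlapped Fasl. Ltb made up 60.3% to 64.6% of the summed adjusted TPM of the 10 genes in B cell libraries and 54.8% to 58.8% in T cell libraries. The median level of Ltb was above that of 98.4% (B cells) and 98.2% (T cells) of the tested genes.

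**Figure D1:**
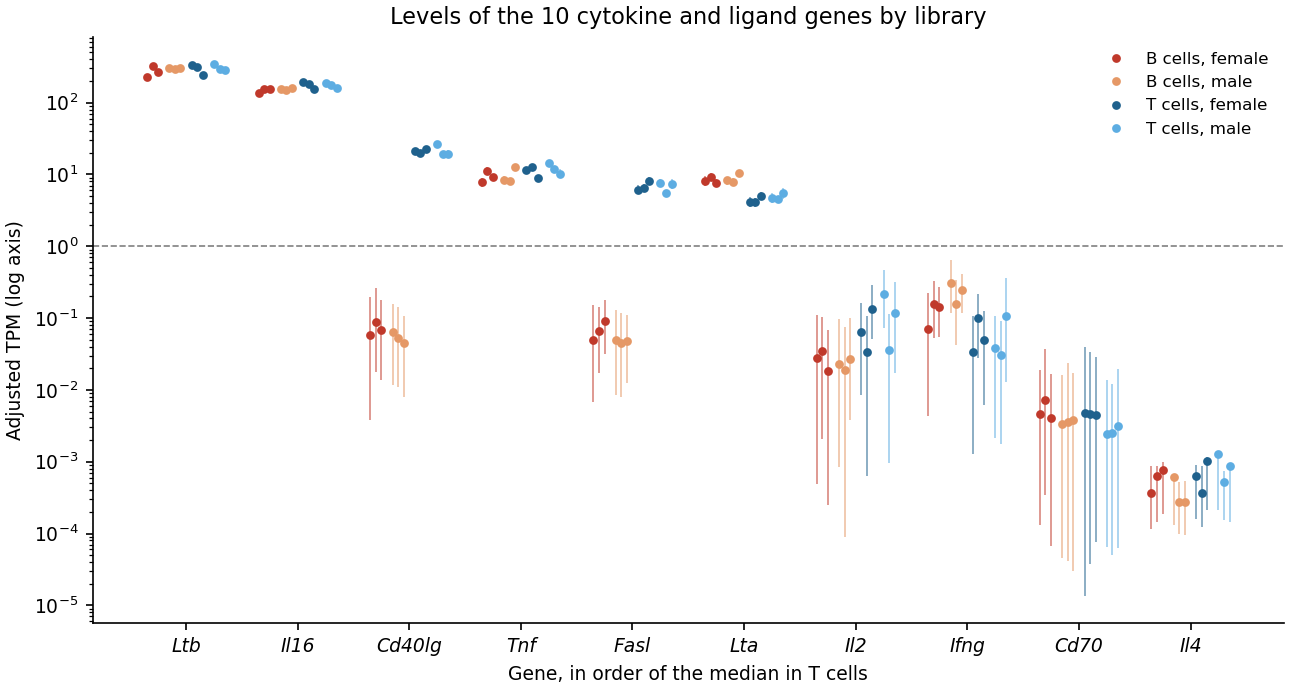
Adjusted TPM on a log axis for the 10 genes in each of the 12 libraries, with vertical lines for the lower and upper bounds deposited with each value and a dashed line at 1. Ltb and Il16 lie above 100 in every library, Cd40lg and Fasl lie above 5 in T cells and below 0.1 in B cells, and Il2, Ifng, Cd70 and Il4 lie below 1 throughout.

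B and T cells were compared to ask which of these genes differ between the resting lymphocyte types. Of the 6 members tested, 4 passed limma's test at a Benjamini-Hochberg adjusted p under 0.05, 3 of them higher in T cells (Cd40lg, Fasl and Il16) and 1 higher in B cells (Lta). Over all 12520 genes tested, 73.0% passed (41.6% towards T cells and 31.4% towards B cells), so the share of members that passed was not above that of genes in general. Cd40lg and Fasl were under 1 in every B cell library. The filter therefore admitted them through T cells alone, which largely fixed their direction. The libraries of the cell types did not overlap for 3 members (Cd40lg, Fasl and Lta), 2 of them higher in T cells and 1 higher in B cells. Over all genes tested the share without overlap was 53.9%, with 29.7% higher in T cells and 24.2% higher in B cells. The median log2 difference of the 6 members, B minus T, was -0.23, beside -0.09 over all genes tested. In bulk RNA, fewer cells that express a gene and less RNA per cell cannot be told apart.

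Ltb, Tnf and Lta lie next to each other in the MHC region of chromosome 17 (GRCm38). Ltb (ENSMUSG00000024399) is at chr17:35194439-35196320 on the plus strand, Tnf (ENSMUSG00000024401) at chr17:35199381-35202007 on the minus strand, and Lta (ENSMUSG00000024402) at chr17:35203165-35205351 on the minus strand. The gap between Ltb and Tnf is 3060 bases and that between Tnf and Lta is 1157 bases. The whole stretch from the first base of Ltb to the last of Lta is 10913 bases.

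Ltb had an adjusted TPM of 230.0, 322.6 and 270.1 in female B cells 1, 2 and 3 and of 300.6, 289.7 and 301.5 in male B cells 1, 2 and 3. In T cells it had 337.5, 313.8 and 244.2 in females 4, 5 and 6 and 344.5, 291.9 and 287.1 in males 4, 5 and 6. The cell types overlapped, with the lowest B cell value in female B cell 1 and the lowest T cell value in female T cell 6. The means were 285.7 ± 32.3 (B cells) and 303.2 ± 37.0 (T cells; SD, n = 6 each), and the log2 difference of -0.08 (SE 0.10) was not past the threshold (limma, adjusted p = 0.47). This differed by 0.0043 from the median log2 difference of all genes tested.

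Lta was higher in B cells. Its adjusted TPM was 8.19, 9.17 and 7.57 in female B cells 1, 2 and 3 and 8.25, 7.96 and 10.6 in male B cells 1, 2 and 3. In female T cells 4, 5 and 6 it was 4.18, 4.14 and 4.98, and in male T cells 4, 5 and 6 it was 4.74, 4.55 and 5.50. Every B cell library was above every T cell library, and the deposited bounds of the cell types were also apart, with a lowest lower bound of 6.84 in B cells and a highest upper bound of 6.55 in T cells. The means of 8.62 ± 1.09 (SD, n = 6) and 4.68 ± 0.512 (SD, n = 6) differed 1.84-fold, and the log2 difference was 0.76 (SE 0.08, limma adjusted p = 2.7e-06).

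Tnf, which encodes a main inflammatory cytokine, had 7.77, 11.3 and 9.19 in female B cells 1, 2 and 3 and 8.49, 8.04 and 12.7 in male B cells 1, 2 and 3. It had 11.4, 12.7 and 8.84 in female T cells 4, 5 and 6 and 14.6, 12.1 and 10.3 in male T cells 4, 5 and 6. The cell types overlapped, since female B cell 2 and male B cell 3 were above female T cell 6 and male T cell 6. The means were 9.58 ± 1.98 (B cells) and 11.7 ± 2.01 (T cells; SD, n = 6 each). The log2 difference of -0.26 (SE 0.13) was not past the threshold (limma, adjusted p = 0.088). It passed when female B cell 2 (-0.33, adjusted p = 0.045), male B cell 3 (-0.36, adjusted p = 0.019) or female T cell 6 (-0.33, adjusted p = 0.040) was left out, and the range of its adjusted p over the single libraries left out was 0.019 to 0.20.

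Ratios within a library do not depend on the scaling between libraries. They were chosen after the values were seen and are given without a test. The ratio of Ltb to Lta was 28.1 to 36.4 in the B cell libraries and 49.1 to 80.7 in the T cell libraries, with no overlap. The ratio of Tnf to Lta was 0.949 to 1.24 in B cells and 1.78 to 3.09 in T cells, again with no overlap, and Tnf was above Lta in 5 of 6 B cell libraries and in 6 of 6 T cell libraries. The ratio of Ltb to Tnf was 23.8 to 36.0 in B cells and 23.5 to 29.6 in T cells and overlapped. Lta, the gene in both ratios that separated the cell types, supplies the partner chain of the lymphotoxin membrane complex.

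**Figure D2:**
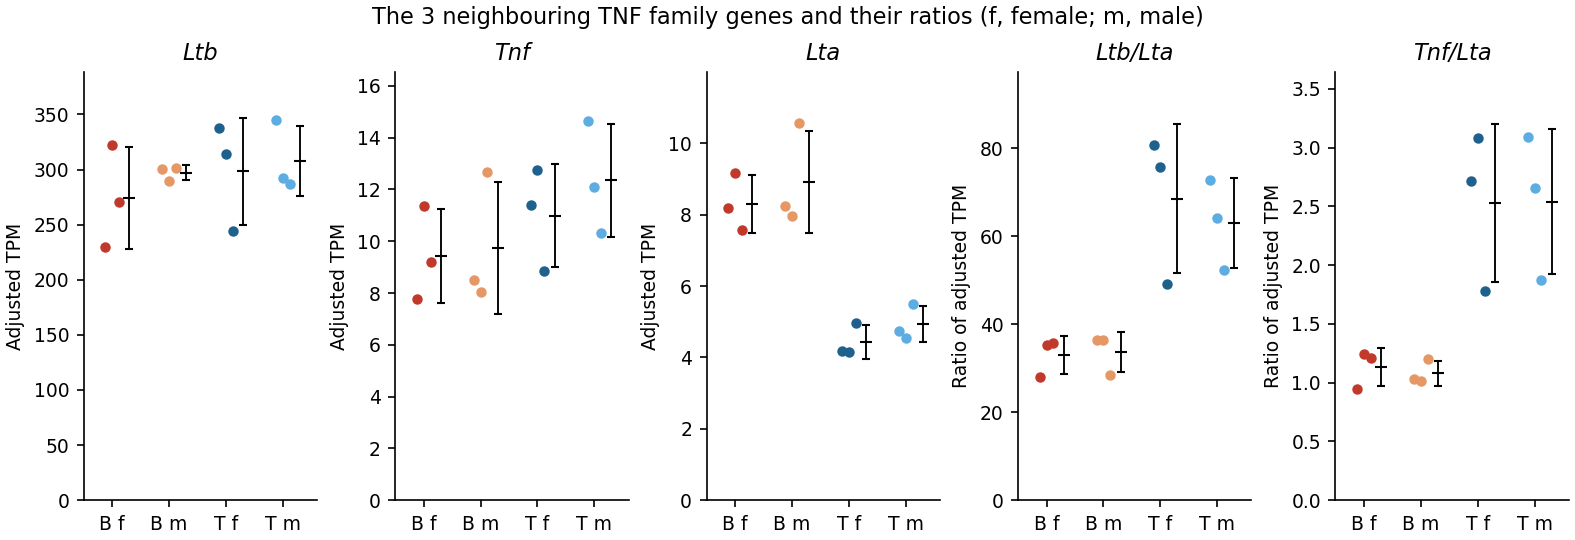
Adjusted TPM of Ltb, Tnf and Lta and the ratios Ltb/Lta and Tnf/Lta, each point 1 library and each bar the mean ± SD of 3 libraries of a group. Lta and both ratios separate B from T cells without overlap, Ltb and Tnf do not, and the lowest T cell value of each ratio is that of female T cell 6.

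The genes that start within 20000 bases of this stretch did not share these levels. Lst1, a leukocyte-specific gene upstream of Ltb, had 2.44 to 3.54 adjusted TPM in B cells and 0.477 to 1.59 in T cells, with a log2 difference of 1.05 (SE 0.12, limma adjusted p = 6e-06). The other annotated neighbours with protein-coding status, Aif1 and Gm16181, were at most 1.22 and 0.652 and were not tested, and the pseudogene Ncr3-ps was at most 0.138. The miRNA genes Mir6973a and Mir6974, which lie inside Ltb and Lta on the same strand, were listed at no more than 0.013.

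Letters of the 250 bases before the start sites in RefSeq (GRCm38.p6) were read for the members, of which 8 had a promoter in the table. They are shown because the 3 neighbours share a locus while Ltb lies far above Tnf and Lta in both cell types. The κB motif was searched as GGGRNNYYCC (R, A or G; Y, C or T; N, any base) and the TATA motif as TATAAA, on both strands. The capitals below mark the match, and each window is written on the strand of its gene. The Ltb window is chr17:35194410-35194439 (plus strand), the Tnf window chr17:35202021-35202046 and the Lta window chr17:35205503-35205528 (both minus strand).
Ltb, κB: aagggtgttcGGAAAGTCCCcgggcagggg
Tnf, TATA: ccccaagggcTATAAAggcggccgtc
Lta, TATA: gcagaagtgaTATAAAccatcactct
The Ltb match reads on the opposite strand of the gene and lies 78 to 87 bases before the RefSeq start site (35194507). That start lies inside Ltb as positioned above (from 35194439), so part of the stretch read for Ltb is within the annotated gene, and the match is nearer to that annotated start. The TATA letters lie 24 to 29 bases before the Tnf start and 162 to 167 bases before the Lta start. No κB letters were in the Tnf or Lta windows and no TATA letters in the Ltb window. Among all 32851 promoters in the table, 7.25% held the κB letters and 12.4% the TATA letters in the same stretch.

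Among the other members, TATA letters were in the promoters of Il2 (26 to 31 bases before the start) and Ifng (25 to 30 bases before). A κB match, read on both strands at neighbouring positions, was in 1 of the 3 Il16 promoters. No promoter of Fasl or Il4 held either motif. Such matches describe letters and not bound sites.

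Il16 had the second highest level and was evenly expressed. It lies at chr7:83642825-83745726 on the minus strand (ENSMUSG00000001741). Its adjusted TPM was 135.0, 156.3 and 155.4 in female B cells 1, 2 and 3 and 157.3, 152.3 and 158.4 in male B cells 1, 2 and 3. In T cells it was 193.7, 179.2 and 156.8 in females 4, 5 and 6 and 190.0, 174.7 and 160.6 in males 4, 5 and 6. The only T cell library below any B cell library was female T cell 6, which was under male B cells 1 and 3. The means were 152.5 ± 8.78 (B cells) and 175.8 ± 15.0 (T cells; SD, n = 6 each), a log2 difference of -0.20 (SE 0.07, limma adjusted p = 0.019). This call rested on the scaling and on single libraries: the adjusted p was 0.051 without female B cell 1, without female T cell 4 or without male T cell 4, and it ran from 0.0056 to 0.051 over the single libraries left out. Under median-ratio scaling the difference was -0.12 (adjusted p = 0.11) and with each library rescaled to sum to 1000000 it was 0.18 (adjusted p = 0.49). Il16 overlaps the pseudogene Phgdh-ps1 on the same strand and Stard5 and the antisense gene 2310044K18Rik on the opposite strand, and the use of strand in the counting is not given in the sources used here.

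Cd40lg and Fasl were expressed in T cells and near the floor of the table in B cells. Cd40lg, on the X chromosome at chrX:57212143-57224042 (plus strand, ENSMUSG00000031132), had 21.1, 19.9 and 22.7 adjusted TPM in female T cells 4, 5 and 6 and 26.7, 19.4 and 19.5 in male T cells 4, 5 and 6. In the 6 B cell libraries it was 0.0451 at the lowest, 0.0611 at the median and 0.0872 at the highest. The lowest lower bound in T cells (16.8) was 64.7 times the highest upper bound in B cells (0.260). The log2 difference was -4.40 (SE 0.08, limma adjusted p = 2.9e-14) on the scale of log2(adjusted TPM + 1), which understates the difference of a gene so low in 1 group, and the means of 0.0624 ± 0.0145 (SD, n = 6) and 21.6 ± 2.81 (SD, n = 6) differed 345-fold.

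Fasl, at chr1:161780689-161788495 on the minus strand (ENSMUSG00000000817), had 6.17, 6.49 and 8.22 in female T cells 4, 5 and 6 and 7.49, 5.51 and 7.47 in male T cells 4, 5 and 6. It ran from 0.0453 through a median of 0.0497 to 0.0919 in the B cell libraries. The lowest lower bound in T cells (4.84) was 26.9 times the highest upper bound in B cells (0.180). The means of 0.0584 ± 0.0179 (SD, n = 6) and 6.89 ± 1.01 (SD, n = 6) gave a log2 difference of -2.89 (SE 0.09, limma adjusted p = 4.2e-12). Of all genes tested, 3.3% were past the threshold with a log2 difference of 2 or more towards T cells, as Cd40lg and Fasl were. The ratio of Cd40lg to Fasl was 2.61 to 3.56 in the T cell libraries.

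Fas ligand is also made by natural killer and CD8+ T cells, so the markers of these cells are given beside it. Of 7 markers of natural killer or cytotoxic cells, 2 were tested and both were higher in T cells, namely Prf1 at 11.5 to 17.6 and Klrd1 at 15.9 to 24.0 adjusted TPM. Over all genes tested, 41.6% passed as higher in T cells. The summed level of the 7 was 32.9 to 41.6 in T cells and 1.73 to 3.89 in B cells, but the defining markers Ncr1 and Klrb1c were no more than 0.0137 and 0.0415 in T cells, lower than in any B cell library, and Nkg7, Gzma and Gzmb at most 0.561, 0.699 and 0.364. Of the CD8 genes, Cd8a was at most 0.256 in T cells while Cd8b1 was at 5.25 to 8.11. The part of such cells in the level of Fasl was not tested.

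**Figure D3:**
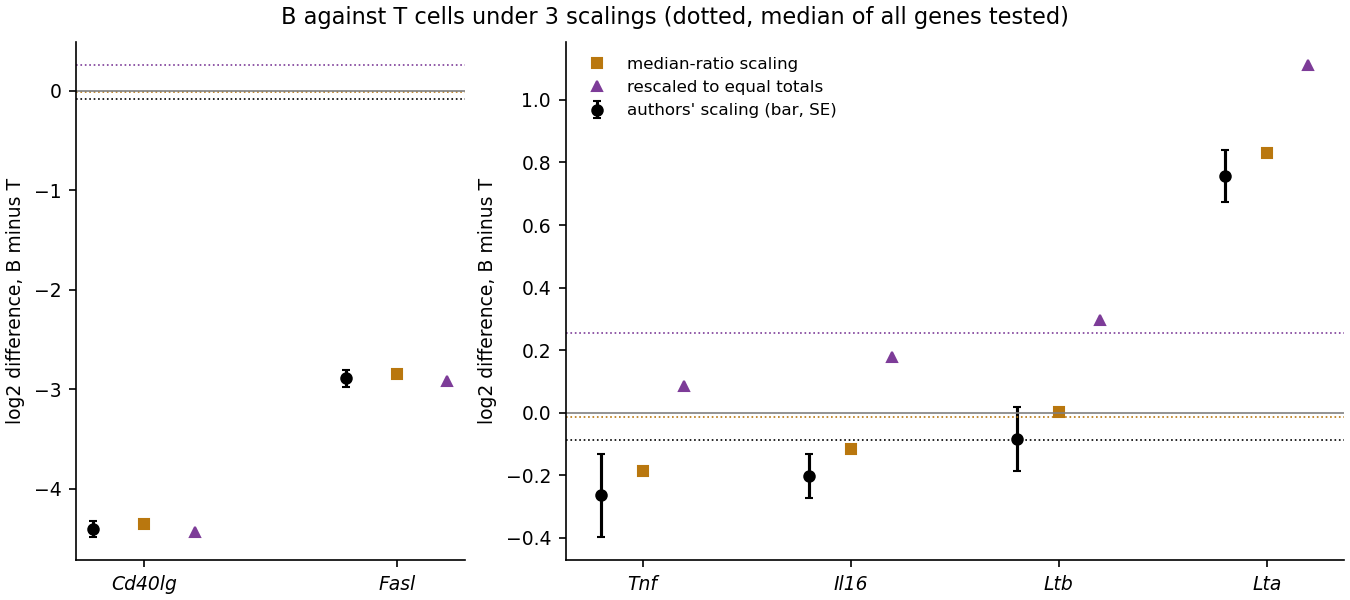
Log2 difference, B minus T, of the 6 members tested, under the authors' scaling (circles with SE), median-ratio scaling (squares) and rescaling to equal totals (triangles), with dotted lines at the median of all genes tested. Cd40lg, Fasl and Lta keep their direction under each scaling, while Tnf, Il16 and Ltb lie close to the dotted line of each scaling.

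The remaining members had low values. Ifng (chr10:118441046-118445892, plus strand, ENSMUSG00000055170) was at 0.0712 to 0.307 in B cells and 0.0304 to 0.107 in T cells, and Il2 (chr3:37120523-37125959, minus strand, ENSMUSG00000027720) at 0.0184 to 0.0351 in B cells and 0.0337 to 0.216 in T cells. The highest Il2 value was that of male T cell 4 (bounds 0.0738 and 0.467), followed by female T cell 6 (0.134) and male T cell 6 (0.117). Cd70 (chr17:57145997-57149777, minus strand, ENSMUSG00000019489) was at most 0.00727 and Il4 (chr11:53602982-53618669, minus strand, ENSMUSG00000000869) at most 0.00127. The table holds no exact 0, so such values cannot be told from absence of a transcript. The median ratio of the upper to the lower bound was 5.85 in B and 38.9 in T cells for Ifng, 171.0 and 18.6 for Il2, 302.0 and 346.0 for Cd70, and 5.40 and 5.76 for Il4, compared with 1.04 in both for Ltb. The B and T cell bounds overlapped for all 4 genes, and no difference between the cell types was read from them. Adad1 lies opposite Il2, and Gm49751 overlaps Ifng on the same strand.

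Many cytokine transcripts carry AU-rich elements in the 3′ UTR, through which decay factors keep them short-lived. The pentamer ATTTA and the nonamer TTATTTATT, which contains it, were searched on the transcript strand in the longest annotated 3′ UTR of each gene (GENCODE M21). The nonamer occurred in 3 of the 10 members: 5 overlapping times in Tnf, 1 time in Lta and 1 time in Il2. It occurred in 7.66% of 21028 genes. The windows below are shown because the 3 members hold the same letters at different levels, Tnf and Lta being expressed and Il2 being near the floor of the table. Ltb and Il16, the members with the highest levels, hold neither motif, and Ifng, Cd70 and Il4, which are among the lowest, hold no nonamer. The first nonamer of each gene is in capitals, and the windows are chr17:35199689-35199717 for Tnf, chr17:35203396-35203424 for Lta and chr3:37120898-37120926 for Il2, all on the minus strand. The Tnf window also holds the next of its overlapping nonamers, left in lower case where it runs past the capitals.
Tnf: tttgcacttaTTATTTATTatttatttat
Lta: aaaagttaagTTATTTATTtatagagaat
Il2: ttatctgaaaTTATTTATTatattgaatt
The pentamer was found 8 times in Tnf, 7 times in Il2, 6 times in Ifng, 3 times in Lta, 2 times each in Cd40lg and Il4, and 1 time each in Fasl and Cd70, and 65.2% of all genes held it. The 3′ UTRs differed in length, from 78 bases in Cd70 and 174 in Ltb to 764 in Tnf and 1064 in Il16, beside a median of 960.5 bases over all genes. No relation of motif to level was tested over so few members.

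Of 12 genes for factors that act on such transcripts, 7 were higher in B cells and none was higher in T cells by limma's test, with a median log2 difference of 0.26. Over all genes tested, 73.0% passed, 31.4% towards B cells and 41.6% towards T cells. The share of these factors that passed in either direction was thus not above that of genes in general in the main fit. With equal totals, 9 of the 12 passed, beside 54.3% of all genes tested. Median-ratio scaling also gave 9 (beside 72.3%), as did leaving out both T cell libraries numbered 6 (beside 73.7%). No set test was run. The 7 include Zfp36, which encodes the decay factor tristetraprolin (127.1 ± 43.5 in B cells and 58.5 ± 8.11 in T cells, SD, n = 6; log2 difference 1.05, SE 0.20, limma adjusted p = 0.00050), Zfp36l1 (1.52, SE 0.12, adjusted p = 1.2e-07) and Zc3h12a, the gene of the endonuclease regnase 1 (1.20, SE 0.12, adjusted p = 1.2e-06). Zc3h12d, Khsrp, Tia1 and Tial1 were also higher in B cells, by 0.73, 0.26, 0.26 and 0.29, while Rc3h1, Rc3h2, Zfp36l2, Elavl1 and Hnrnpd did not pass. Rc3h1 (0.57, limma adjusted p = 0.0080) and Rc3h2 (0.50, adjusted p = 0.019) also passed with each library rescaled to the same total and, at 0.35 (adjusted p = 0.00094) and 0.26 (adjusted p = 0.0031), without both T cell libraries numbered 6. The p-values of the fit with equal totals are not comparable with those of the main fit, as described at the end. Under median-ratio scaling Rc3h1 (0.28, adjusted p = 0.046) and Elavl1 (0.13, adjusted p = 0.022) passed. Of the genes for proteases of these ligands or their regulators, Adam17, the gene of the enzyme that releases TNF from the membrane (0.79, SE 0.05), Rhbdf2, whose product regulates that enzyme (2.20, SE 0.05), and Adam10, the gene of a protease that sheds Fas ligand and CD40 ligand (0.20, SE 0.06), passed and were higher in B cells.

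The receptors of these ligands were distributed between the cell types. Of 16 genes, 14 were tested, 9 were higher in T cells and 2 in B cells, with a median log2 difference of -0.78. Over all genes tested, 73.0% passed, 41.6% towards T cells and 31.4% towards B cells. The filter admitted Tnfrsf1a, Il2rb and Cd4 only through T cells and Cd40 only through B cells, since each was under 1 in the other cell type. For Cd4, the choice of CD4+ T cells also fixed the direction. Cd40, the receptor of CD40 ligand, was at 57.5 ± 4.52 (SD, n = 6) in B cells but no higher than 0.00498 in T cells, the reverse of Cd40lg. Cd27, the receptor of CD70, was at 1.64 ± 0.306 (B cells) and 108.3 ± 8.92 (T cells; SD, n = 6 each), although Cd70 itself was near the floor in both. Fas was at 3.43 ± 0.874 (B cells) and 15.4 ± 0.912 (T cells; SD, n = 6 each), a log2 difference of -1.91 (SE 0.12, limma adjusted p = 9e-09), in the same direction as Fasl.

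Of the TNF receptors, Tnfrsf1a was at 0.176 ± 0.0825 (B cells) and 13.4 ± 0.697 (T cells; SD, n = 6 each), while Tnfrsf1b, at 7.40 ± 0.851 and 8.54 ± 0.752 (SD, n = 6), did not pass (log2 difference -0.19, SE 0.08, limma adjusted p = 0.051). Ltbr, the receptor of the lymphotoxin complex, was no higher than 0.204 in B or 0.0101 in T cell libraries and was not tested. Tnfrsf14, which also binds lymphotoxin α, was higher in T cells (-1.13, SE 0.09).

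Of the chains that bind interleukin 2, Il2rb (-2.46, SE 0.33) and Il2rg (-0.42, SE 0.06) were higher in T cells, and Il2ra did not pass (adjusted p = 0.66). Il4ra, with 80.3 ± 6.72 and 75.8 ± 10.6 (SD, n = 6), did not pass either, but passed as higher in B cells with equal totals (0.47, adjusted p = 0.038). Of the interferon γ receptor chains, Ifngr2 was higher in B cells (0.58, SE 0.07) and Ifngr1 higher in T cells (-0.21, SE 0.08, adjusted p = 0.024). Cd4 and Cd9, whose products bind interleukin 16, were both higher in T cells (-7.58 and -1.68), which for Cd4 follows from the choice of CD4+ cells. With every library rescaled to the same total, 7 receptor genes were higher in T cells and 3 in B cells, while Il2rg (-0.04, adjusted p = 0.88) and Ifngr1 (0.17, adjusted p = 0.49) no longer passed. As for the decay factors, p-values with equal totals, also that of Il4ra, are not comparable with those of the main fit. Without both T cell libraries numbered 6, Il2ra passed and was higher in B cells (0.51, limma adjusted p = 0.0028), and Ifngr1 did not pass (-0.12, adjusted p = 0.11). The T cells had been sorted as CD25- cells and Il2ra is the gene of CD25, so its comparison was not free of the sort.

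**Figure D4:**
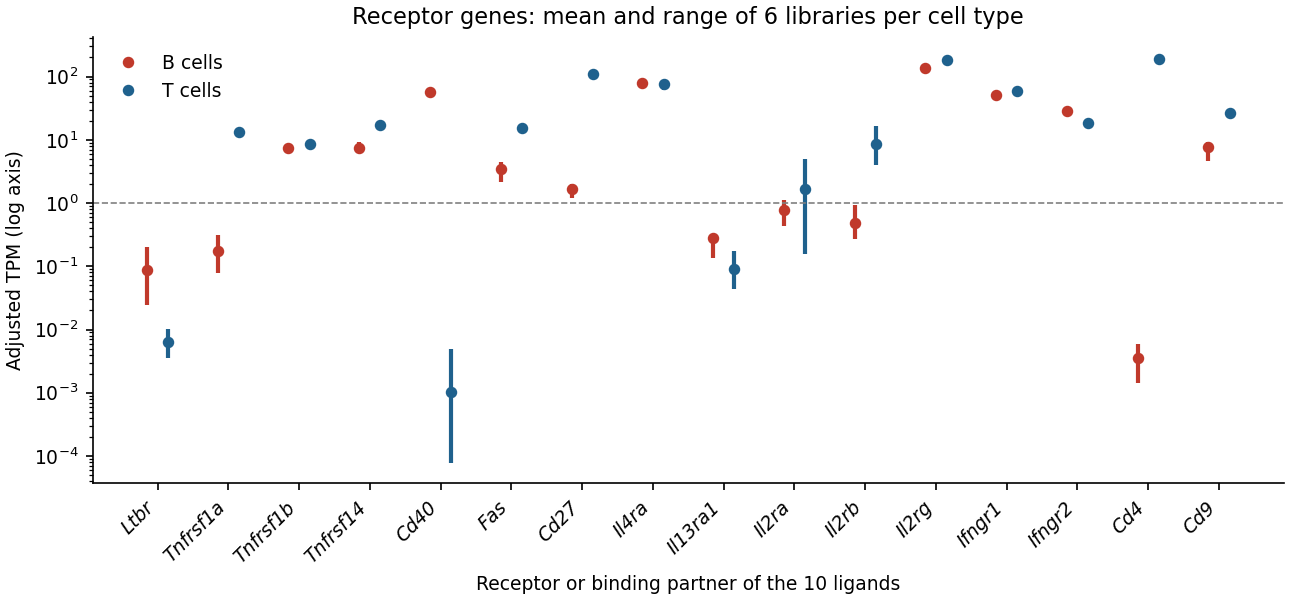
Mean (point) and range (line) of adjusted TPM over 6 B cell and 6 T cell libraries for 16 genes of receptors or binding partners, on a log axis with a dashed line at 1. Cd40 is far higher in B cells, Cd27, Tnfrsf1a and Cd4 are far higher in T cells, and Ltbr and Il13ra1 are under 1 in every library.

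Among 11 other genes of the TNF ligand family, 3 were tested and all 3 were higher in T cells, with a median log2 difference of -1.76. Tnfsf8 and Tnfsf11 were under 1 in every B cell library, so the filter admitted them through T cells and largely fixed their direction. Over all genes tested, 73.0% passed, 41.6% towards T cells and 31.4% towards B cells. Tnfsf8, the CD30 ligand gene, had 22.0 ± 4.34 (SD, n = 6) in T cells and 0.0712 ± 0.0189 (SD, n = 6) in B cells, close in both to Cd40lg. Tnfsf10, which encodes TRAIL, had 9.30 ± 0.669 and 2.03 ± 0.125, and Tnfsf11, which encodes RANKL, had 2.07 ± 0.407 and 0.122 ± 0.0265 (SD, n = 6 each). Of the 32 other cytokine and chemokine genes, 8 were tested, 7 were higher in B cells and 1 in T cells. Except for Tgfb1, the 7 were under 1 in every T cell library. The filter therefore admitted them through B cells and largely fixed their direction. The 7 were Il12a (13.2 ± 1.52 in B cells, SD, n = 6), Tgfb1 (49.5 ± 2.93), Ebi3 (3.80 ± 0.765), Il18 (3.11 ± 0.563), Ccl5, Csf1 and Tgfb3, and the 1 was Osm, the oncostatin M gene, with 10.1 ± 1.03 (SD, n = 6) in T cells and 3.15 ± 0.221 (SD, n = 6) in B cells. Il5, Il13, Il17a, Il17f, Il21 and Il22 were at most 0.0157 in every library, beside at most 0.00127 for Il4.

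Of 8 genes for factors that direct helper T cells towards cytokine production, 7 were tested, 2 were higher in B cells (Tbx21 and Bcl6) and 3 in T cells (Gata3, Stat4 and Eomes). Over all genes tested, 73.0% passed, 31.4% towards B cells and 41.6% towards T cells. Tbx21 was under 1 in every T cell library, and Gata3 and Eomes in every B cell library, so the filter admitted each only through the other cell type. Gata3, the factor that drives Il4 after stimulation, had 12.4 ± 1.16 (SD, n = 6) in T cells but no more than 0.00625 in B cells, while Il4 was at the floor of the table in both. Tbx21, the factor that drives Ifng, had 1.66 ± 0.501 (B cells) and 0.155 ± 0.141 (T cells; SD, n = 6 each) (log2 difference 1.19, SE 0.13, limma adjusted p = 2.4e-06). Of the 7 markers of natural killer or cytotoxic cells, Ncr1, at 0.0264 to 0.584, and Klrb1c, at 0.0950 to 0.248, were also above their T cell levels in every B cell library. The others went the other way. Prf1 and Klrd1 were higher in T cells, and Nkg7, Gzma and Gzmb had higher means there with overlapping libraries. The 7 summed to 1.73 to 3.89 in B cells and 32.9 to 41.6 in T cells. The part of such cells in Tbx21 or Ifng was not tested. Maf and Stat6 did not pass.

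The sexes were compared separately in both cell types, and the sex effects were compared between the cell types. None of the 6 members tested passed limma's test in B cells (0.144% of all genes tested did), in T cells (0.104%) or in the difference of the sex effects (0.0%), and none of these 6 had an unadjusted p under 0.05. Over all genes tested, 373, 319 and 295 had an unadjusted p under 0.05. Of the members not tested, the sexes did not overlap for Ifng in B cells and for Cd70 in both cell types, but their deposited bounds did. The log2 differences of the 6 members, female minus male, ran from -0.13 to 0.03 in B cells and from -0.16 to 0.03 in T cells, with SEs between 0.10 and 0.19 in each. For the X-linked Cd40lg it was -0.03 (SE 0.11) in T cells, where the means were 21.2 ± 1.42 (females) and 21.9 ± 4.18 (males; SD, n = 3 each).

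The T cell libraries numbered 6 stood apart in both sexes. Their summed level of the regulatory T cell markers Foxp3, Il2ra and Ikzf2 was 17.2 and 21.0 adjusted TPM, against 1.75 to 3.14 in the libraries numbered 4 and 5. Ikzf2 was at 13.4 in females and 11.3 in males (1.07 to 2.07 in the others), Il2ra, the gene of CD25, at 5.0 and 4.11 (0.158 to 0.340), and Il2rb at 16.1 and 16.8 (3.92 to 5.27). Of 7 immediate early genes, which respond to handling, Fos, Jun and Dusp1 were lower there. Fos was at 45.2 and 41.5 against 108.0 to 189.0, Jun at 74.9 and 44.4 against 116.0 to 180.0. The summed level of the 7 was 193.0 to 232.0 against 390.0 to 570.0. Nr4a1 went the other way on average, since its log2 difference, B minus T, rose from 0.18 to 0.35 without these libraries. Fosb, Egr1 and Ier2 are not given by library here.

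In the same libraries, Ltb, Tnf and Il16 had the lowest T cell value of each sex and Lta the highest. For Ltb these were 244.2 and 287.1, against 291.9 to 344.5 in the libraries numbered 4 and 5, and for Tnf 8.84 and 10.3 against 11.4 to 14.6. For Lta they were 4.98 and 5.50 against 4.14 to 4.74. Cd40lg and Fasl did not separate in this way. How many of all genes tested did so was not counted, so the pattern is not read as a trait of these members. The part of other T cells or of handling in these members was not tested. Without both libraries numbered 6, a choice made after seeing the data, the log2 difference of Tnf between B and T cells was -0.39 and passed the threshold (limma, adjusted p = 0.025), and Cd40lg (-4.41), Fasl (-2.80), Il16 (-0.27) and Lta (0.83) still passed, while Ltb (-0.18, adjusted p = 0.13) did not.

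**Figure D5:**
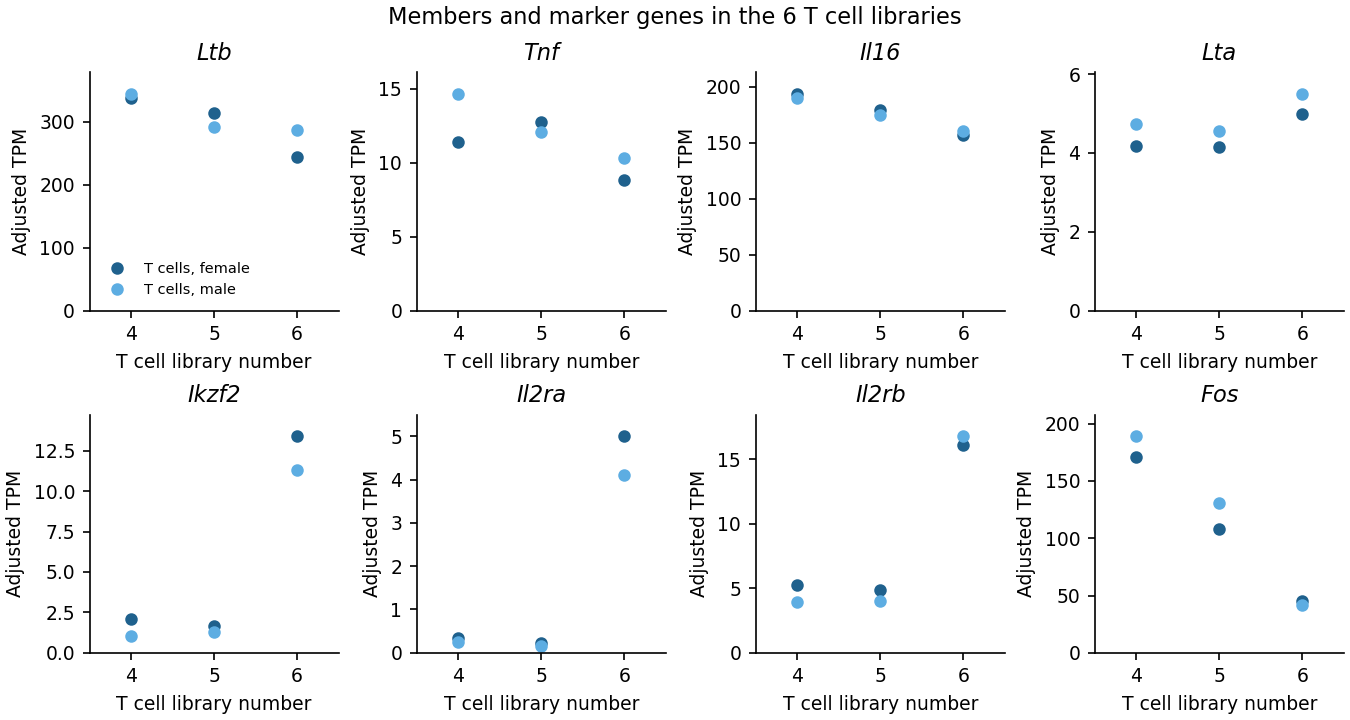
Adjusted TPM of 4 members (upper row) and 4 other genes (lower row) in the T cell libraries numbered 4, 5 and 6 of each sex. In both libraries numbered 6, Ltb, Tnf, Il16 and Fos have the lowest value of their sex, and Lta, Ikzf2, Il2ra and Il2rb the highest.

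The cell type labels were checked by their defining markers. The summed level of Cd79a, Cd79b, Ms4a1 and Pax5 was 2220 to 2640 in B cell libraries and 0.896 to 4.91 in T cell libraries, and that of Cd3d, Cd3e, Cd4, Lck and Tcf7 was 1020 to 1190 in T cells and 9.76 to 14.1 in B cells. Myeloid markers (Lyz2, Cd68, Csf1r and Itgam), which matter for Tnf since macrophages make it, summed to 10.3 to 14.3 in B cells and 2.62 to 5.76 in T cells. Of the 3 tested, 2 were higher in B cells, as were 31.4% of all genes tested. Plasma cell markers summed to 49.7 to 64.1 in B cells, mostly Xbp1, and to 26.5 to 32.8 in T cells. The erythroid markers Hbb-bs and Hba-a1 summed to between 0.558 and 196.0 in B cells and between 1.94 and 42.9 in T cells and did not pass the test. The part of these cells in the members' levels was not tested.

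For each tested member, the protein-coding genes whose log2(adjusted TPM + 1) was most alike over the 12 libraries were sought among 10400, as a description. For Cd40lg they were Gata3, Ndrg2 and Wfikkn2 and for Fasl Rarg, Ndrg2 and Lrp8, with Pearson's r of 0.999 or more, and each of these genes was under 0.12 on average in B cells, so that r mainly restates the gap between the cell types. For Lta they were Tdo2 (r = 0.987), Scmh1 (0.986) and Cep85l (0.981), for Il16 Ndufv1 (0.981), Cyb561d2 (0.981) and Ppp4c (0.973), for Ltb Ndufb7 (0.952), Nudc (0.947) and Cox6a1 (0.932), and for Tnf Usp5 (0.918), Fadd (0.905) and Commd9 (0.905). When deviations from the 4 group means were compared, which removes the cell type, Gata3 was again first for Cd40lg (0.987), followed by Crtam and Srsf12 (0.945 each). The first for the others were Hspbp1 for Ltb (0.992), Med14 for Lta (0.974), Tom1 for Tnf (0.98), Swsap1 for Il16 (0.983) and Lrp8 for Fasl (0.948). Cd40lg, Fasl and the genes named here for them were under 0.12 on average in B cells. Their r of deviations therefore rests mainly on the T cell libraries, where Cd40lg was highest in male T cell 4 (26.7, against 19.4 to 22.7 in the others). All libraries share their scaling factors with every gene, and no member was among the genes most like another.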

How the data were processed

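RNA was sequenced in 12 libraries of resting B and naive T cells of both sexes, grouped by their labels. Per the labels, strand-specific libraries were prepared from rRNA-depleted total RNA with ERCC spike-ins, which were not used here. The submitters' processing notes name Trim Galore, FastQC, STAR and mm10; the quantifier and the adjustment are not given in the sources used here. Some label fields name genomic DNA, and the values were treated as RNA. The deposited signal is the authors' adjusted TPM, with a lower and an upper bound of unstated level per library and gene. It is not a read count, so depth is unknown and precision was read from the bounds, which cover estimation only. Library totals ran from 561020 to 1453940, and 1 noncoding RNA held up to 37.4% of a total. Every per-library column of the table was mapped to a sample. Identifiers of 40254 of 41128 genes matched GENCODE M21, which gave positions and 3′ UTRs.

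Genes with at least 1 adjusted TPM in at least 3 libraries (12520) were tested on log2(adjusted TPM + 1) by limma 3.58.1 (R 4.3.3), with a coefficient for each group, a mean-variance trend and Benjamini-Hochberg adjustment over all genes tested. Members under this filter were not tested. In simulated data with 200 of the 12520 genes changed by a log2 value of 1, 97.4% were recovered between B and T cells with 3.21% of calls false, and 92.8% between the sexes in B cells with 4.09% false. The simulation drew libraries independently and changed few genes. It lacked the correlation of T cell libraries given below, so these rates need not hold for the data. Other steps used Python 3.11.15 with numpy 2.4.6, pandas 2.3.3 and matplotlib 3.10.9. Alternatives were another pseudocount, filter, scaling or variance model, leaving out libraries, and a replicate block. Whether equal numbers pair the sexes was checked by the correlation of deviations from the group means, which was 0.72, 0.55 and 0.52 for T cell libraries 4, 5 and 6 and -0.17, -0.04 and -0.34 for B cell libraries 1, 2 and 3, so that numbers paired T cell libraries only. Since replicates are pools of mice, p-values measure the spread between pools.

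The 10 members, the lists of receptors, other ligands, cytokines, decay factors, proteases and lineage factors, and the marker lists were chosen with earlier results of these data known. All members are named; of the lists, genes past the threshold or highest in a direction; for patterns most alike, the 3 genes with the highest r; and as neighbours, genes that start within 20000 bases of the Ltb to Lta stretch. Genes of these lists named for not passing, and the within-library ratios, were chosen after their values were seen. A single gene of the lists is not reported here.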

Additional observations from a re-analysis of the deposited data

How the results depend on the processing

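The counts of members past the threshold stayed within 1.5 times the value reported, and stayed at 0 for the sexes, under all alternatives run, but the genes behind them moved. After rescaling each library to a sum of 1000000, the median of all genes moved from -0.09 to 0.25, the share of all calls higher in B cells moved from 43.0% to 70.8%, and the log2 differences of Ltb (0.298), Tnf (0.086) and Il16 (0.178) turned to the B cell side without passing, which relative to that median are 0.04, -0.17 and -0.08. The p-values of that fit with equal totals were of another order. The limma adjusted p was 5.9e-135 for Cd40lg and 2.8e-72 for Fasl, against 2.9e-14 and 4.2e-12 under the authors' scaling. Hbb-bs passed there although it ran from 0.2103 to 154.2 within B cells, so calls of that fit are weaker evidence than those of the main fit. Under median-ratio scaling Ltb was 0.003 and Il16 no longer passed. Leaving out each library in turn gave -0.36 to -0.20 for Tnf, -0.24 to -0.17 for Il16, -0.15 to -0.02 for Ltb, 0.70 to 0.79 for Lta, -4.44 to -4.33 for Cd40lg and -2.95 to -2.83 for Fasl. With no filter, 2 of the 4 low members passed, Ifng (0.15, limma adjusted p = 0.0049) and Il2 (-0.10, adjusted p = 0.042), at levels where the deposited bounds of the cell types overlap. Of the receptors, 18.2% of calls were higher in B cells under the authors' scaling and 30.0% under equal totals. With the replicate block within a cell type, 0 members passed between the sexes, as without it. With T cell libraries of the same number as a block (estimated correlation 0.479), an alternative chosen after seeing the data, 4 members passed between B and T cells, with Il16 at an adjusted p of 0.024 and Tnf at 0.12 (limma); B and T cells share no numbers to pair. Depth is unknown, and the low values of Il2, Ifng and Cd70 have wide bounds.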
